A study of Homo sapiens with 6 samples.

Results

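RNA sequencing counts were examined for the genes that were detected in the shHMGA2-2 line of MDA-MB-231, a human triple-negative breast cancer cell line, and were near 0 in both other lines. HMGA2 is an architectural chromatin protein that binds AT-rich DNA, and the study knocked it down with short hairpin RNAs. The members were chosen by their counts in all 6 libraries: at most 3 counts in each shNC and each shHMGA2-1 library and at least 20 in both shHMGA2-2 libraries, with symbols starting HLA- left out. The rule found 105 of the 61806 genes in the table, and 2 further genes were left out for their HLA- symbols. The difference between shHMGA2-2 and the other lines is therefore how the genes were selected, and every level given for them is a description with no test.

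The 3 groups had 2 libraries each: shNC, which carried a control hairpin, and shHMGA2-1 and shHMGA2-2, which carried different hairpins against HMGA2. All were made in MDA-MB-231 and no other treatment is given in the labels. According to the study's methods, stable knockdown lines were selected with puromycin and expanded from single clones, so the effect of a hairpin and the difference between clones cannot be told apart here. The library names of the shNC samples read WT, those of shHMGA2-1 read SH2, and those of shHMGA2-2 follow a different form. The labels do not say whether the lines were prepared together. Nothing states that the 2 libraries of a line came from separate cultures.

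Libraries held 16461178 to 17167293 counts. shNC held 2126 and 2161 counts of HMGA2 itself, shHMGA2-1 held 858 and 989, and shHMGA2-2 held 435 and 482, so the 3 lines did not overlap. Of the 20 leukocyte markers, 5 could be tested, and the summed level of the list was 56.1 and 53.5 CPM (counts scaled to library size) in shNC, 31.2 and 30.9 with shHMGA2-1, and 6.56 and 7.28 with shHMGA2-2. CD3D, CD3E, MS4A1, TYROBP, SPI1 and CD48 were at 0 in all libraries and PTPRC, the common leukocyte antigen, held at most 2 counts. The endothelial markers EMCN and ERG and the fibroblast markers DCN, LUM, PDGFRA and POSTN were also at 0 in all libraries. Other markers of these lists were detected: ESAM, an adhesion protein of endothelium, held 2805 and 2878 counts in shNC and 176 and 201 in shHMGA2-2, ROBO4 823 and 950 beside 544 and 546, EGFL7 227 and 206 beside 384 and 512, and the collagen gene COL1A1 53 and 78 beside 88 and 76. Among the leukocyte markers, ITGB2 held 562 and 564 counts in shNC beside 63 and 78 in shHMGA2-2. LAPTM5 held 178 and 160 beside 13 and 7, LCP1 130 and 107 beside 3 and 11, and HCLS1 21 and 15 beside 0 and 0. CORO1A went the other way, with 7 and 10 beside 17 and 20, and 38 and 70 with shHMGA2-1. The summed level of the endothelial list was 242 and 254 CPM in shNC, 194 and 173 with shHMGA2-1, and 68.1 and 75.9 with shHMGA2-2. Because RNA was taken from bulk cells, more cells with a transcript and more RNA per cell cannot be told apart.

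Most human genes are silent in any given cell type. Stable silence is commonly carried by DNA methylation of CG-rich promoters or by repressive histone marks, and KRAB zinc finger genes, imprinted genes, placental genes and germline genes are well known for being controlled in this way. Neither methylation nor chromatin was measured in these libraries.

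Short stretches of the start regions of the members with the highest levels per length among those matched are given to show how unlike they are. Of the 105 members, 70 (66.7%) had a start region in the RefSeq table of build GRCh38.p14, too few for a comparison of the whole set, so each stretch describes its own gene. The 150 bases before the start are printed in the direction of the gene, with each CG in capitals. They come from chrX:51743292-51743441 (plus strand) for GSPT2, chr6:55875591-55875740 (minus strand) for BMP5 and chr1:109687667-109687816 (plus strand) for GSTM1.
GSPT2: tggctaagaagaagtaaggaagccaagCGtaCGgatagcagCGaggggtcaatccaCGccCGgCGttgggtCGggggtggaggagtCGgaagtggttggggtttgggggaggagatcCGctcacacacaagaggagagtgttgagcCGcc
BMP5: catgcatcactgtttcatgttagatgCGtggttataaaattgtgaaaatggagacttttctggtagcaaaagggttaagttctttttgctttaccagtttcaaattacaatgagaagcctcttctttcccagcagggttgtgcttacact
GSTM1: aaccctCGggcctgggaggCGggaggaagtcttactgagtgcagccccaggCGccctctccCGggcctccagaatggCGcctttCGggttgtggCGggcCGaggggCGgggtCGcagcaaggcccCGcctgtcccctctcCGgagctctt
In the window from 250 bases before to 50 bases after the start, GSTM1 had 22 CG pairs, GSPT2 17 and BMP5 1. The GC content of the same windows was 69.0%, 51.7% and 37.3%. LRRC61, which ranks between them by level, is not printed because most of its stretch lies inside the gene as the table gives it, whereas that of GSTM1 reaches only 3 bases into its gene. The genes at the top of the set thus included CG-rich and CG-poor starts.

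In shHMGA2-2 the members took little of the library. Summed over the 105 genes, shNC held 45 and 35 counts, shHMGA2-1 57 and 48, and shHMGA2-2 12472 and 12859, or 0.0758% and 0.0775% of the library. The mean count of a member in shHMGA2-2 ranged from 22 to 1010 with a median of 67, and 35 members had at least 100 counts in both libraries. Per length, the FPKM (counts divided by the exonic length and the library total) ranged from 0.085 to 54.4 with a median of 1.03. Only 15 members lay above the median FPKM of all tested genes in shHMGA2-2 (3.58), so most were weakly expressed genes.

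**Figure D1:**
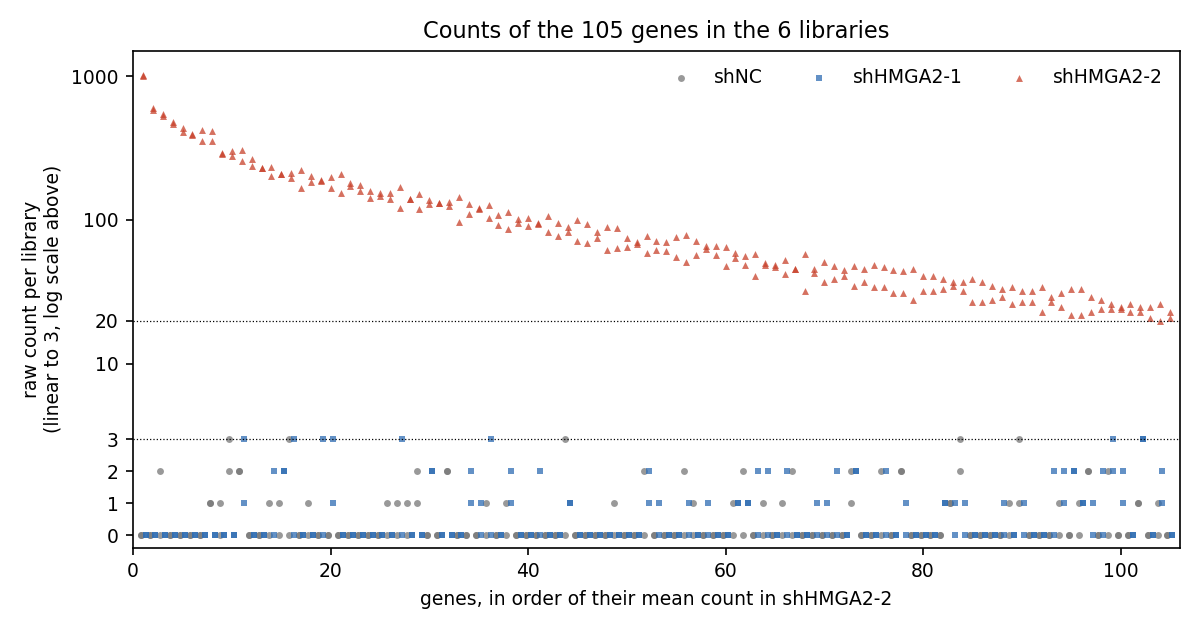
Raw counts of the 105 genes in each of the 6 libraries (2 per line), with genes in order of their mean count in shHMGA2-2 along the x axis and the count on the y axis, which is linear up to 3 and logarithmic above. The dotted lines mark the limits of the rule, 3 and 20 counts. The shHMGA2-2 libraries range from 20 to 1022 counts.

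Outside shHMGA2-2, 48 members had 0 counts in all 4 libraries and 57 had some. Of the latter, 13 had counts in shNC alone, 18 in shHMGA2-1 alone and 26 in both. For the 48, a floor of 3 counts per library puts the fold of shHMGA2-2 over the other lines at no less than 7.13 to 327, with a median of 25.1. These bounds cover counting error only.

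Between the libraries of shHMGA2-2, the absolute log2 ratio of a member's CPM had a median of 0.21 and reached 0.82. The rule required 20 counts in each of the 2, so no member rests on a single library and this spread is given as a description.

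In the edgeR quasi-likelihood fit (adjusted p under 0.05 and at least 2-fold), 105 of 105 members were called higher in shHMGA2-2 than in shNC and 105 of 105 higher than in shHMGA2-1, which the rule fixes. All 105 passed the filter on low counts, through their shHMGA2-2 libraries alone. Over all 16110 tested genes, 11.7% were called higher and 9.65% lower in shHMGA2-2 than in shNC, and 7.83% were called higher than in shHMGA2-1. The same count limits applied to other lines found 2 genes detected in shNC alone, 1 in shHMGA2-1 alone and 33 in both of these and not in shHMGA2-2.

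At the limits of the rule, PLXNA4 (20 and 26 counts), CST1 (25 and 21) and ENSG00000288815 (23 and 21) were the lowest members in shHMGA2-2. Just outside lay ENSG00000229771 (22 and 19) and ENSG00000283236 (19 and 23). At the other limit, VWA5A, DTX3 and HSPB8 were members with 3 counts in a library of another line, whereas RSAD2, ZNF660 and KLC3 held 4 and were left out. RSAD2, an interferon-induced antiviral enzyme, had 107 and 86 counts in shHMGA2-2.

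Of the 105, 84 (80%) were protein coding in GENCODE version 29, beside 79.3% of the tested genes. Long noncoding and similar transcripts were 14 (13.3%, beside 13.4%), 4 were pseudogenes, 1 was an immunoglobulin segment and 2 were not in that release. The kinds of gene thus had nearly the shares of the tested genes. By role, as grouped after the values were known, 32 encode intracellular signaling, cytoskeletal, trafficking and other proteins, 14 surface receptors, channels or transporters, 13 zinc finger proteins of the C2H2 class, 11 secreted or matrix proteins, 8 metabolic or detoxifying enzymes and 6 other transcription or chromatin proteins. A further 15 are long noncoding RNAs or have no symbol, 3 are heavy-chain variable segments and 3 are other pseudogenes.

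By the gene ontology terms in the table, 5 of 78 annotated members (6.41%) had G-protein coupled receptor activity, beside 103 of 11338 other tested genes (0.908%). The term for sequence-specific transcription factors was held by 14 members (17.9%, beside 7.45%), 11 of which were zinc finger genes. The plasma membrane term "integral component" was held by 10 of 85 members (11.8%, beside 5.19%), while the broader terms for the plasma membrane (20%, beside 20.1%) and for integral components of any membrane (11.8%, beside 17.1%) showed no excess, and the nucleoplasm by 12 (14.1%, beside 27.1%). No test was made of these shares. The members are near 0 in the other lines by the rule, whereas 14108 tested genes had at least 10 counts in each shNC library. The shares thus compare genes of unlike level, and none was computed over other genes near 0 in shNC.

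The noncoding RNA LINC02474 (chr1:221966341-221984964) had the highest count of the set. It held 998 and 1022 counts in shHMGA2-2 and 0 in the other 4 libraries, at least 327-fold higher, and an FPKM of 44.7 ± 0.509 (SD, n = 2). SIRLNT (131 and 132 counts, 0 elsewhere), ENSG00000286456 (166 and 222, 0 elsewhere) and TLR8-AS1 (32 and 58, 0 elsewhere), which lies antisense at the locus of the endosomal receptor TLR8, were also unseen in the other lines. TLR8 itself had 1 and 10 counts in shHMGA2-2 and none elsewhere, under the limit of the rule. LINC03002, LINC02475, LINC01505, LINC01322 and LINC00664 ranged from 26 to 153 counts in shHMGA2-2 with at most 1 elsewhere. EFHD2-AS1 (25 and 23) and ENSG00000276850 (25 and 24) were close to the limits of the rule, with up to 3 and 2 counts in another library.

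LINC01764 (46 and 43 counts in shHMGA2-2) overlaps UCA1, a long noncoding RNA of many carcinomas, on the opposite strand. UCA1 had 16 and 11 counts in shNC, 26 and 21 with shHMGA2-1, and 6192 and 6850 with shHMGA2-2. Whether the counting used strand is not stated, so reads of such a pair cannot be told apart. In all, 18 of the 105 members overlapped a gene outside the set with at least 20 counts in some library. ENSG00000288815, for instance, lies within ZNF626 on the same strand, which had 3, 7, 1 and 8 counts in the other lines and 316 and 341 in shHMGA2-2. Among the others, BISPR and LINC00664 overlap MVB12A and ZNF429 on the same strand. CCDC3 and ARHGAP44 overlap OPTN and ELAC2 on the opposite strand.

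BISPR (37 and 35 counts in shHMGA2-2, at most 1 elsewhere) starts 55 bases from BST2, which encodes tetherin, an interferon-induced membrane protein that holds budding viruses at the cell. BST2 held 0 and 3 counts in shNC, 9 and 3 with shHMGA2-1, and 338 and 345 with shHMGA2-2, so the transcripts on both sides of this stretch were counted in shHMGA2-2. The stretch between them, chr19:17405631-17405685 read on the plus strand, holds 2 CG pairs, in capitals.
BST2 to BISPR: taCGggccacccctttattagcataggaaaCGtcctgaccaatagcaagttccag

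Among the 4 members with the highest FPKM, 3 were variable segments of the immunoglobulin heavy chain locus, which B cells rearrange to make antibodies. IGHV3-15 (chr14:106153624-106154163) had 390 and 395 counts in shHMGA2-2, IGHV1-14 (chr14:106145891-106146131) 175 and 160, and IGHVIII-13-1 (chr14:106142287-106142577) 95 and 101. All 3 were at 0 in the other 4 libraries. The segments are neighbours on the minus strand, with gaps of 3.31 and 7.49 kb, and IGHV1-14 and IGHVIII-13-1 are pseudogenes.
The heavy-chain constant genes IGHM and IGHG1 were at 0 in every library. The variable segments on either side, IGHV3-13 and IGHV3-16, held at most 3 counts. CD79A and MS4A1, which mark B cells, also held at most 3 counts in any library. The signal was thus limited to a short run of the locus and came without the constant genes of an antibody transcript.

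Among secreted proteins, BMP5 (chr6:55753653-55875590), a bone morphogenetic protein known from skeletal and limb development, had 599 and 578 counts in shHMGA2-2 and 0 in the other 4 libraries, at least 191-fold higher.

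A further 9 secreted or matrix genes were lower, with 21 to 106 counts. BCHE, the serum cholinesterase made by the liver, held 106 and 82 counts and 0 elsewhere, although it lies inside LINC01322 on the opposite strand. CST1, a salivary cystatin, held 25 and 21 counts and 0 elsewhere. PON3, a lactonase carried on lipoproteins, TIMP3, a matrix-bound inhibitor of metalloproteinases, NTN1, an axon guidance ligand, and LAMA4, a laminin chain of vessel walls, had 23 to 58 counts in shHMGA2-2 and at most 2 elsewhere. CCDC3, a secreted protein of fat and vessel cells (29 and 33), and ITGBL1, a protein related to beta integrins (44 and 31), were in the same range.

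CGB8, a gene for the beta chain of the placental hormone chorionic gonadotropin, had 34 and 47 counts in shHMGA2-2 and at most 2 elsewhere. It belongs to a cluster of near-identical copies, between which reads can be split in counting. A pseudogene of the cluster, ENSG00000269706, lies 1.1 kb away and had 29 and 27 counts. CGB5 had 16 and 15 counts in shHMGA2-2 and 0 in shNC, and CGB7 20 and 51 beside 1 and 7. CGB1 and CGB2 were at 0 in all libraries.

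Of the enzymes, GSTM1 (chr1:109687814-109709039) conjugates glutathione to electrophiles and is missing from many human genomes through a common deletion. It had 293 and 289 counts in shHMGA2-2, 1 and 0 in shNC and 0 in both shHMGA2-1 libraries. The gene was thus near the lower limit of detection in the other lines.
The 3 other tested genes of its family were all called higher in shHMGA2-2 than in shNC: GSTM2 (0 and 1 against 47 and 47 counts), GSTM3 (71 and 53 against 493 and 475) and GSTM4 (120 and 138 against 318 and 302). In the edgeR fit the log2 fold change was 2.88 ± 0.17 (SE, adjusted p = 3.43e-13) for GSTM3 and 1.18 ± 0.14 (adjusted p = 1.1e-07) for GSTM4. GSTM2 overlaps GSTM1 on the same strand and the family is close in sequence. GSTM5 was at 0 in all libraries.

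**Figure D2:**
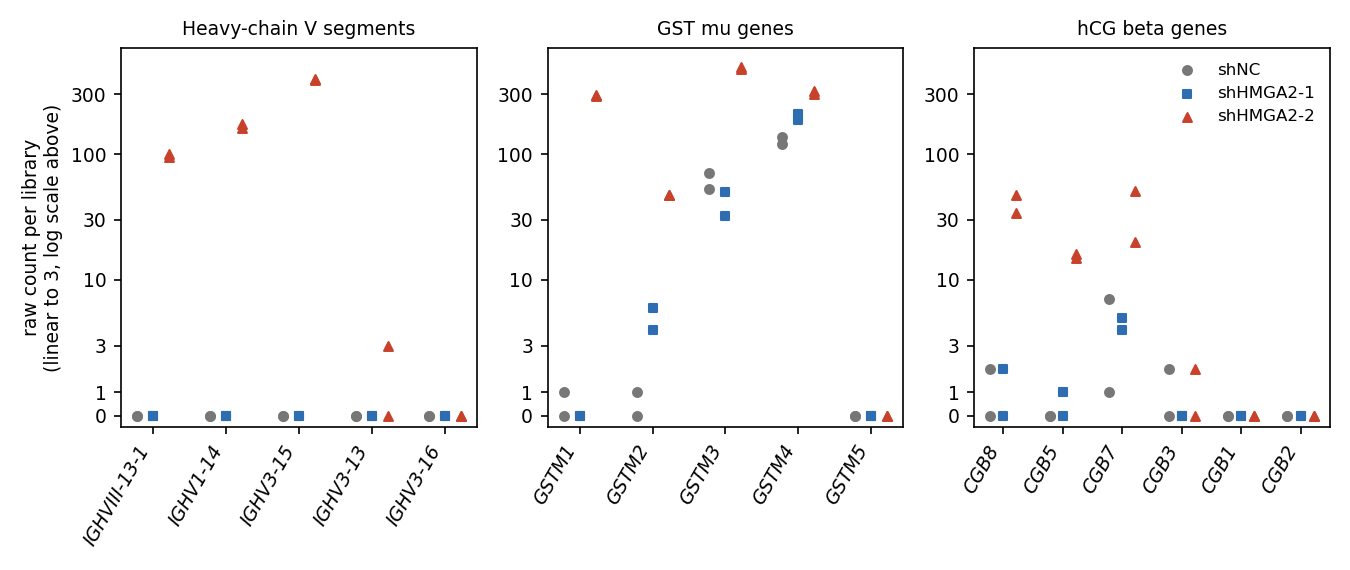
Raw counts per library, linear up to 3 and logarithmic above, for heavy-chain variable segments, glutathione S-transferase mu genes and chorionic gonadotropin beta genes, with 2 points per line. The 3 variable segments in the set hold 95 to 395 counts in shHMGA2-2 and 0 elsewhere, and those beside them at most 3.

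GALNT14, which starts mucin-type glycosylation, held 267 and 238 counts in shHMGA2-2 and 0 elsewhere, and EHD3, an endocytic recycling protein whose gene lies 78.9 kb away, 75 and 83 and 0 elsewhere. CPT1C, a carnitine palmitoyltransferase of neurons, held 202 and 233 counts and at most 2 elsewhere. EPHX2, the soluble epoxide hydrolase, CHDH, a choline dehydrogenase of liver and kidney mitochondria, and AKR1E2, an aldo-keto reductase, were at 0 in the other lines and had 27 to 65 counts in shHMGA2-2. THNSL2, a threonine synthase-like protein, held 46 and 46 and at most 2 elsewhere.

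MEST is an imprinted gene, expressed from the paternal copy in most tissues. It had 170 and 122 counts in shHMGA2-2 and at most 3 elsewhere. It overlaps COPG2 on the opposite strand, which held 480 and 449 counts in shNC beside 845 and 951 in shHMGA2-2. Of the 10 other imprinted genes tested, 3 were called higher in shHMGA2-2 than in shNC (IGF2, CDKN1C and L3MBTL1) and 2 lower (PHLDA2 and NAP1L5), beside 11.7% higher and 9.65% lower over all tested genes. L3MBTL1, a chromatin reader, fell under the limit of 2-fold without shHMGA2-2 replicate 2 (log2 fold change 0.93). IGF2, a fetal growth factor, held 0 counts in both shNC libraries, 8 and 6 with shHMGA2-1, and 41 and 51 with shHMGA2-2, at least 14.5-fold higher than shNC. PHLDA2, a growth-restraining gene of the placenta, fell from 732 and 671 to 138 and 140.

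The 14 surface receptors, channels and transporters had 20 to 208 counts in shHMGA2-2, and 8 were at 0 in the other 4 libraries. GPR176, an orphan receptor of the circadian clock, held 208 and 153 counts, and PDPN, the lymphatic and podocyte protein podoplanin, 104 and 91. KCNK5, a background potassium channel, held 78 and 95, and ANO2, a calcium-activated chloride channel of olfactory neurons, 70 and 68. All 4 were at 0 elsewhere.
SIRPA, the myeloid receptor for CD47, held 129 and 138 counts in shHMGA2-2, 0 in shNC and 2 in each shHMGA2-1 library. ADGRE1, a receptor of myeloid cells, held 39 and 33. Of the leukocyte markers, SPI1 and TYROBP were at 0 in all libraries, CD14 held 8 and 3 counts in shHMGA2-2 (0 and 7 in shNC), and the integrin gene ITGB2 held 63 and 78 (562 and 564 in shNC). OR8D1, an olfactory receptor, held 100 and 71 counts and ADRA2C, an adrenergic receptor, 28 and 35, with 0 elsewhere. GPRC5C, a retinoic acid-induced receptor (62 and 90), and LYNX1, a membrane-anchored modulator of nicotinic receptors (23 and 26), were also at 0 elsewhere. SLCO3A1, an organic anion transporter (113 and 87), SLC16A14, of the monocarboxylate transporter family (22 and 33), and PLXNA4, a semaphorin receptor (20 and 26), had up to 2 counts in another library. The 14 genes thus included some usual in neurons (ANO2), myeloid cells (SIRPA, ADGRE1) and lymphatic vessels (PDPN). Several others are given no tissue here, and all 14 stood at low levels.

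Among intracellular proteins, GSPT2 (chrX:51743442-51746232), an intronless copy of the translation termination gene GSPT1, led with 466 and 480 counts and 0 elsewhere, at least 153-fold higher. GSPT1 held 4705 and 4528 counts in shNC and 4356 and 4088 in shHMGA2-2, less than 2-fold apart.
LRRC61 (chr7:150323263-150338156) had 229 and 230 counts and the overlapping ZBED10P, on the same strand, 355 and 419, both at 0 elsewhere. ZBED10P carries a pseudogene symbol but is protein coding in GENCODE. Reads in their shared part cannot be assigned to either with certainty.

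Of the other intracellular genes, DUSP23, a small phosphatase (66 and 57 counts), C11orf86 (61 and 70), RFLNB, a filamin-binding protein (147 and 154), ZYG11A, a substrate receptor of a ubiquitin ligase (180 and 173), SEC14L6 (97 and 145) and PXMP4, a peroxisomal membrane protein (108 and 93), were at 0 in the other lines. DTX3, a ubiquitin ligase (258 and 308), HSPB8, a small heat shock protein (211 and 195), VWA5A (277 and 302), TP53I11 (184 and 202), PPP2R2C, a phosphatase subunit of brain (167 and 200), and MYH14, a nonmuscle myosin (191 and 187), had up to 3 counts in another library. MAP1LC3A, an autophagosome protein (63 and 66), and PYCARD, the inflammasome adaptor (54 and 59), held at most 1 count in any library of the other lines.
GIMAP2, a lymphocyte GTPase (25 and 31), lies 348 kb from LRRC61. ARHGEF35 (59 and 77 counts, at most 2 elsewhere) is a near copy of part of ARHGEF5, which rose from 10 and 17 counts in shNC to 194 and 188, so the reads of the copies may be mixed. Among the rest were the kinase HUNK (34 and 23) and the GTPase-activating proteins ARHGAP44 (89 and 83) and ARHGAP28 (62 and 72).
Also at 0 elsewhere were MTMR8, a phosphoinositide phosphatase (45 and 41 counts), RNF144A, a ubiquitin ligase (75 and 65), PLCXD3 (28 and 46) and ZDHHC15, a palmitoyltransferase of neurons (27 and 32). SLFN12L, of the interferon-regulated schlafen family, held 119 and 121 counts and at most 1 elsewhere. CNKSR1, a scaffold of the Ras pathway (32 and 27), DENND2D, an exchange factor for Rab GTPases (35 and 48), PRR5, a subunit of an mTOR complex (24 and 28), and GRAMD1B, a sterol transfer protein (37 and 51), had up to 3 counts in another library. None of these 9 passed 121 counts.

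The 13 zinc finger genes had 24 to 433 counts in shHMGA2-2, and 6 were at 0 in the other lines. Proteins of this class, many with a KRAB domain, bind DNA through arrays of fingers and mostly repress transposable elements and genes. ZNF558 led with 433 and 412 counts, ZNF829 held 210 and 210, ZNF649 143 and 160, ZNF813 151 and 119, ZNF577 134 and 126, and ZNF568, whose mouse counterpart represses a placental promoter of Igf2, 104 and 127. ZNF558 and ZNF649 were at 0 elsewhere and the others at no more than 3. The other 7, ZNF879, ZNF625, ZNF727, ZNF630, ZNF287, ZNF599 and ZNF334, held 24 to 95 counts and at most 3 elsewhere. ZNF577 and ZNF649 overlap on the same strand.
ZNF829 and ZNF568 are transcribed away from each other from starts 37 bases apart, and held at most 3 counts in any library of the other lines. The stretch between them, chr19:36916292-36916328 read on the plus strand, has a GC content of 75.7% and 3 CG pairs, in capitals.
ZNF829 to ZNF568: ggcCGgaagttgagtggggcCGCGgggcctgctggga

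Chromosome 19, where most zinc finger genes of this class lie in clusters, carried 20 members (19%), beside 7.06% of the tested genes. Of these, 8 were zinc finger genes and 12 were not. Chromosome 7 carried 9 (8.57%, beside 4.74%) and chromosome 1 carried 11 (10.5%, beside 10.1%).
Among genes with a ZNF symbol that were not members, 51 of 405 tested were called higher (12.6%) and 14 lower in shHMGA2-2 than in shNC. On chromosome 19 these were 31 of 202 (15.3%) and 1. Genes of chromosome 19 without a ZNF symbol gave 133 of 915 higher (14.5%) and 43 lower, and the genes of all other chromosomes 1609 of 14888 higher (10.8%) and 1510 lower. Away from the members, chromosome 19 thus had more higher than lower calls, whether or not the gene was a zinc finger gene, and this held with DESeq2's size factors, upper quartile scaling and DESeq2 itself.

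**Figure D3:**
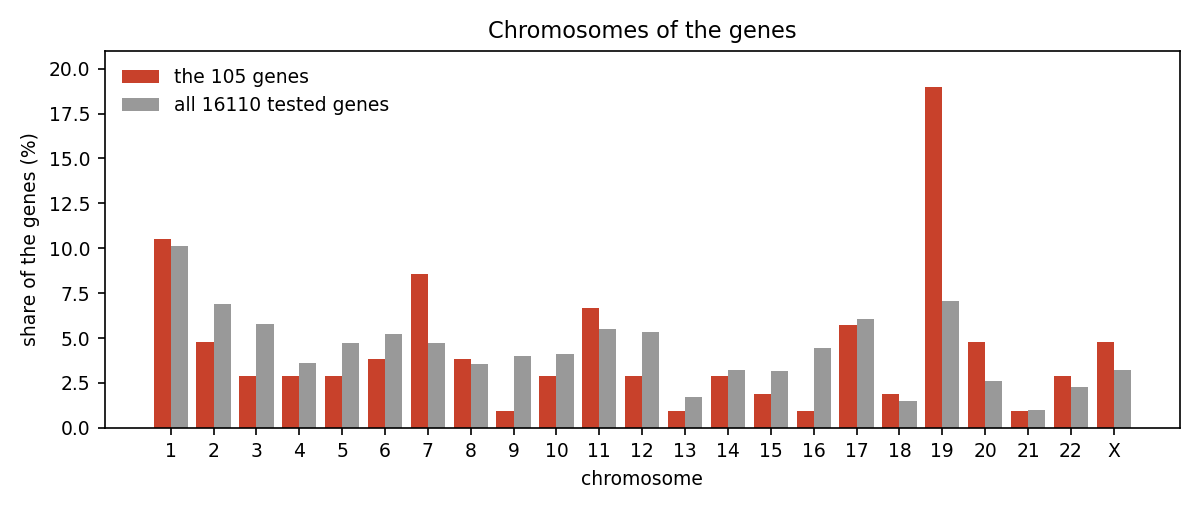
Share of the 105 genes (red) and of all 16110 tested genes (grey) on each chromosome, in percent. Chromosome 19 holds 19% of the former and 7.06% of the latter.

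The 6 other transcription or chromatin genes had 27 to 140 counts in shHMGA2-2. MSX2, a homeobox gene induced by bone morphogenetic proteins, held 64 and 88 counts, with 1 in a single shNC library and 0 in the other 3. TSPYL5 held 140 and 139 and BARX2, a homeobox gene of muscle and epithelia, 27 and 39. EHF, an epithelial factor of the ETS family, held 32 and 37, and up to 3 elsewhere, and L3MBTL4, a reader of histone methylation, 46 and 37 with 0 elsewhere. H3-7 (130 and 110) and H2BP1 (51 and 79), a histone pseudogene, lie among copies of histone genes on chromosome 1, so their reads may come from other copies. H3P4, 0.9 kb from H2BP1, had 11 and 12 counts in shHMGA2-2 and 0 in shNC.

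Because BMP5 and MSX2 were both members, the pathway between them was read from lists of its genes. Bone morphogenetic proteins bind receptor kinases that activate SMAD proteins, which induce ID genes and MSX2, while secreted proteins such as noggin, chordin-like proteins and follistatin hold the ligands back. Of the 7 other ligands tested, 2 were called higher in shHMGA2-2 than in shNC, BMP6 and GDF7, and 2 lower, BMP2 and BMP4, beside 11.7% higher and 9.65% lower over all tested genes. BMP2 held 70 and 78 counts in shNC, 53 and 51 with shHMGA2-1, and 0 in both shHMGA2-2 libraries, at least 26.1-fold lower than in shNC. BMP4 held 1402 and 1351 counts in shNC, 856 and 705 with shHMGA2-1, and 601 and 647 with shHMGA2-2. BMP5 was thus counted in the line in which BMP2 was not.
BMP6 had 8 and 6 counts in shNC, 18 and 27 with shHMGA2-1, and 58 and 75 with shHMGA2-2 (log2 fold change over shNC 3.14 ± 0.40, adjusted p = 2.89e-07). GDF7 had at most 14 counts in any library, and its call (adjusted p = 0.0204) was lost in DESeq2 (adjusted p = 0.146) and without shHMGA2-2 replicate 2 or shNC replicate 1.

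Of the 22 tested receptors, inhibitors and targets other than MSX2, 4 were called higher and 6 lower. The 4 were the targets ID1, ID2 and ID3 and the inhibitory SMAD gene SMAD6. ID2 rose from 4 and 11 counts in shNC to 209 and 274 in shHMGA2-2 (log2 fold change 4.90 ± 0.30, adjusted p = 7.71e-13), with 3 and 5 in shHMGA2-1. Without shNC replicate 2 this log2 fold change was 5.79, and without shNC replicate 1 it was 4.35. ID1 rose by a log2 fold change of 1.92 ± 0.09 (adjusted p = 2.34e-15) and ID3 by 1.65 ± 0.09 (adjusted p = 1.34e-13). SMAD6 held 36 and 68 counts in shNC beside 107 and 148 with shHMGA2-2 and 124 and 97 with shHMGA2-1, and fell under the 2-fold limit without shHMGA2-2 replicate 2 (0.97) or shNC replicate 1 (0.82).
The lower genes were the inhibitors CHRDL1, FST, FSTL1 and BMPER, the receptor BMPR1B and the target HEY1. CHRDL1 fell from 761 and 817 counts in shNC to 24 and 48 in shHMGA2-2 and BMPR1B from 74 and 101 to 8 and 7. FST held 778 and 774 counts in shNC, 272 and 262 with shHMGA2-1, and 172 and 183 with shHMGA2-2. BMPER held 22 and 40, 5 and 7, and 8 and 6 in the same order, so both were also lower in shHMGA2-1. FSTL1 held 7642 and 7792, 10490 and 10677, and 3985 and 4132. The call of HEY1 (adjusted p = 0.00661) was lost in DESeq2 (adjusted p = 0.0591) and without shHMGA2-2 replicate 1 (adjusted p = 0.092), and FSTL1 lay at the limit of 2-fold (log2 fold change -1.01, and -0.99 without shNC replicate 2). The shares called, 18.2% higher and 27.3% lower, stand beside 11.7% and 9.65% of all tested genes. NEO1, which encodes a receptor for netrins that also binds bone morphogenetic proteins, had 135 and 118 counts in shNC, 733 and 726 with shHMGA2-1, and 1431 and 1480 with shHMGA2-2.

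**Figure D4:**
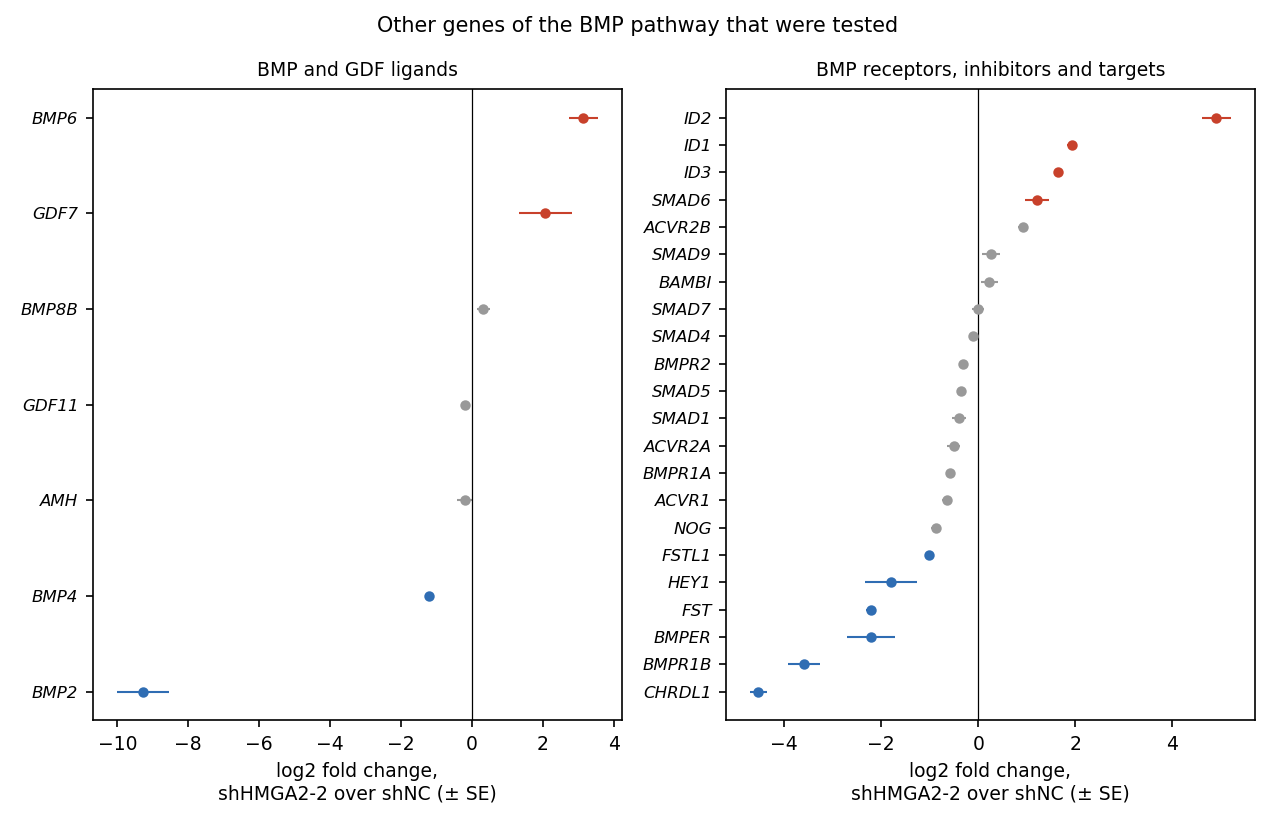
Log2 fold change of shHMGA2-2 over shNC with its standard error (2 libraries per line) for the 7 ligands and the 22 receptors, inhibitors and targets that were tested and are not among the 105 genes. Red marks genes called higher, blue called lower and grey not called. ID2 lies at 4.90 and CHRDL1 at -4.53, and the fitted value of BMP2, which was at 0 in shHMGA2-2, depends on the prior count and is no measured size.

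The members were also looked up in lists of tissue genes. None of the 105 was on the lists of leukocyte, endothelial, fibroblast, epithelial, liver and gut, neuronal, germline, melanocyte, muscle or bone genes, or of developmental transcription factors. These lists held only 12 to 76 of the 61806 genes each, so few or no members are to be expected on them. Their absence therefore says little about tissue. Only BMP5, MSX2 and MEST were on any of the 14 lists. As background, the members named above are usual in the liver (BCHE, PON3, CHDH), the nervous system (CPT1C, PPP2R2C, ADRA2C), the placenta (CGB8), salivary gland (CST1), sensory epithelium (OR8D1, ANO2), blood cells (SIRPA, ADGRE1, GIMAP2, PYCARD) and epithelia (EHF).
The calls among the other tested genes of those lists are to be read beside 11.7% higher and 9.65% lower over all tested genes. Of the liver and gut genes, 2 of 7 were called higher and 4 lower in shHMGA2-2 than in shNC, the latter including FOXA1 and FOXA2, which open chromatin in endoderm. Of the neuronal genes, 4 of 8 were higher and 3 lower, of the epithelial genes 5 of 10 higher and 2 lower, and of the germline genes 2 of 4 higher and 1 lower. Of the 5 tested leukocyte markers, 4 were lower and none was called higher. The muscle and bone lists each had 1 gene called higher, of 4 and 5 tested, the latter SOX9, and none lower. Over the alternatives to the edgeR fit, the genes called higher ranged from 1 to 2 for liver and gut, 2 to 4 for neuronal, 0 to 2 for germline and 0 to 1 for muscle genes, so these few calls are not firm. Of the developmental transcription factors, 7 of 24 were higher and 4 lower. Of the endothelial and melanocyte genes, 0 were called higher and 2 of 5 and 1 of 6 lower, with 0 to 1 endothelial gene higher over the alternatives, and the 1 fibroblast gene tested was not called.

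Members lay near each other in 11 pairs within 100 kb, which involved 19 of them, and in 26 pairs within 1000 kb, which involved 33. The pairs within 100 kb included the segments of the heavy-chain locus, LRRC61 and ZBED10P, ZNF829 and ZNF568, ZNF577 and ZNF649, CGB8 and its pseudogene, GALNT14 and EHD3, BCHE and LINC01322, and ENSG00000268119 (354 and 416 counts in shHMGA2-2) and LINC00664. Most members thus had no other of the set within 100 kb. How often other tested genes lie this close together was not computed.

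The genes around the members were examined next, since the rule did not use them. A neighbour was the nearest tested gene on each side within 250 kb that was no member and overlapped none, which gave 132 genes around 91 members. In shHMGA2-2 over shNC 38 of them (28.8%) were called higher and 9 (6.82%) lower, beside 11.7% and 9.65% of all tested genes. Without a filter on low counts, 31 of 171 neighbours (18.1%) were called higher and 3 lower. That fit took in all genes with a count and called 2102 of them higher and 1733 lower. Their share was not computed, so 18.1% cannot be set beside 11.7%. With the filter, the median log2 fold change of the neighbours was 0.54, beside 0.03 over all tested genes. Neighbours and members share the same libraries, and a gene with few counts in shNC has more room to be called higher than lower. Among the 110 neighbours with at least 10 counts in each shNC library, 19 (17.3%) were higher and 9 (8.18%) lower. Of all 14108 tested genes with as many counts, these neighbours included, 6.48% were higher and 10.7% lower.

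Of the 53 members with a neighbour on either side, 7 had both called higher. They were GSTM1, CGB8, its pseudogene ENSG00000269706, ARHGEF35, H2BP1, ZNF879 and BISPR. CGB8 and ENSG00000269706 share the same neighbours, CGB5 and CGB7. GSTM1 and CGB8 have neighbours of their own families, between which reads may be split. ARHGEF35 and H2BP1 also belong to groups of gene copies. Leaving out the 24 neighbours with ZNF symbols, 31 of 108 (28.7%) were higher. Within 50 kb, 22 of 64 (34.4%) were higher and 1 lower. The neighbours called higher thus included genes of several families, and more were not called than called. Some, such as CGB5 and H3P4, passed the filter on low counts through shHMGA2-2 alone, so they could hardly be called lower. The shares in this paragraph include them. They were not computed for neighbours with at least 10 counts in each shNC library, and so are not free of that limit.

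The neighbours with the largest fitted rise were CACNG7, BST2, CGB5, H3P4 and ZNF354C. CGB5 and H3P4 were at 0 in shNC, so their fitted values depend on the prior count, and their counts show only that they were at least 4.89-fold and 3.62-fold higher. RSAD2, beside RNF144A, had a ratio of summed counts over shNC of 60.8 (95% exact counting interval 20.5 to 298). CACNG7, an auxiliary subunit of brain glutamate receptors, had 0 counts in shNC, 5 and 1 with shHMGA2-1, and 183 and 127 with shHMGA2-2, at least 49-fold higher than in shNC. BST2 had a ratio of summed counts over shNC of 215 (95% exact counting interval 73.4 to 1047). ZNF354C, 25.3 kb from ZNF879 (55 and 76 counts, 0 elsewhere), rose from 7 and 4 counts to 436 and 465 (log2 fold change 6.24 ± 0.26, adjusted p = 5.69e-16).
The neighbours with the largest fall included CLMP, NALCN, KRCC1 and CLU. CLMP, an adhesion protein beside GRAMD1B, fell from 707 and 684 counts in shNC to 31 and 39 (log2 fold change -4.39 ± 0.16, adjusted p = 3.71e-17). With shHMGA2-1 it held 64 and 50. CLU held 737 and 808 counts in shNC, 180 and 105 with shHMGA2-1, and 260 and 274 with shHMGA2-2, so it was lowest with shHMGA2-1. NALCN (122 and 157 with shHMGA2-1, 67 and 71 with shHMGA2-2) and KRCC1 (541 and 567, 192 and 188) were lowest with shHMGA2-2. A member at 0 in shNC could thus stand beside a gene that fell.

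**Figure D5:**
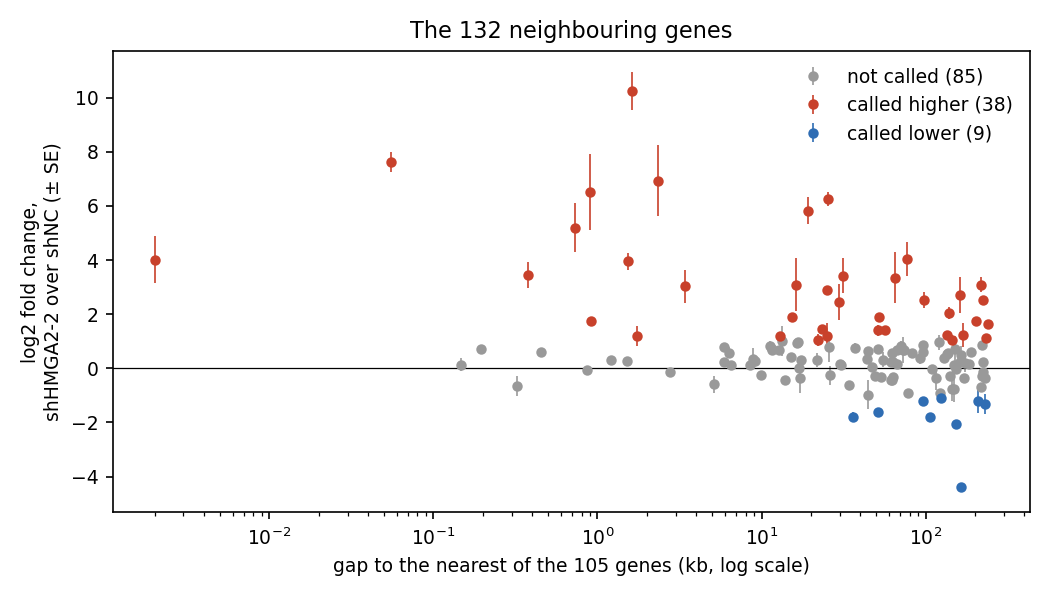
Log2 fold change of shHMGA2-2 over shNC with its standard error for the 132 neighbours (y axis) against the gap to the nearest of the 105 genes in kilobases (x axis, logarithmic). Red marks the 38 called higher, blue the 9 called lower and grey the others, and the blue points lie at gaps of 36.1 kb or more.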

How the data were processed

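RNA from 6 libraries of MDA-MB-231 lines was sequenced, 2 each of shNC, shHMGA2-1 and shHMGA2-2, grouped by their titles. The authors deposited a single table with a raw count per gene and library, whole numbers without normalization, and FPKM values that they made from those counts by exonic length and library total. The submitters' processing notes name HISAT2 2.2.1, HTSeq 0.6.1 and GRCh38.p13. The strand setting of the counting is not given in the sources used here. Positions are those of the table, and 103 of the 105 members were found on the same chromosome in GENCODE version 29, 46 with the same start and end.

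The members were found by applying the count limits (at most 3, at least 20) to the deposited counts. The members and the gene lists were chosen with earlier results of these data known. All tests used edgeR 4.0.16 in R 4.3.3 on the counts of all 6 libraries (quasi-likelihood, TMM, filterByExpr, Benjamini-Hochberg adjustment over 16110 genes). A gene was called at an adjusted p under 0.05 and at least 2-fold. The standard error of a log2 fold change is its size divided by the square root of F. The p-values measure the spread between libraries of a line, which may be technical. On simulated counts with 200 genes changed 4-fold in shHMGA2-2, edgeR recovered 195 against shNC and 198 against shHMGA2-1, with 1 false call each. DESeq2 1.42.0, the alternative, recovered 191 and 193 with 0. The changed genes were drawn only from those above a minimum mean count, so this recovery does not cover genes with few counts.

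Libraries held 16461178 to 17167293 counts. A count of 0 allows up to 3 counts, and a fold against a group at 0 was computed against that floor per library. Ratios against a few counts have 95% exact (Clopper-Pearson) intervals. Reads carry no molecular identifiers, so floors and intervals cover counting error only.

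The genes named are HMGA2, the 30 members highest in FPKM and the 10 highest in CPM, members on a list or with another within 100 kb, those at the limits of the rule, the 5 called neighbours with the largest change each way, and called genes of lists that hold a member. Members outside this rule, relatives of a member (GSTM, CGB, GSPT1, ARHGEF5, NEO1, TLR8) and genes overlapping or beside one were named with their values in view. Some genes that these rules cover are not reported here. As alternatives, the fits were repeated with DESeq2, other scalings, no filter, a replicate block, leaving out each library and other limits of the rule.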

Additional observations from a re-analysis of the deposited data

Results flagged for a closer look

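Of 37 named genes that are not among the 105, 26 differed between the 2 knockdown lines past the threshold of the edgeR fit (adjusted p under 0.05 and at least 2-fold), in the direct comparison of shHMGA2-2 with shHMGA2-1. Many of them were named because of their change in shHMGA2-2 against shNC, which shares the shHMGA2-2 libraries with this comparison. The log2 fold change of shHMGA2-2 over shHMGA2-1 was -1.01 for HMGA2 itself, whose counts were 858 and 989 against 435 and 482.

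Beside the members, CACNG7 was higher by 5.63 on the log2 scale, BST2 by 5.80, ZNF354C by 5.40 and RSAD2 by 4.95. UCA1 was higher by 8.11, GSTM2 by 3.20, GSTM3 by 3.56, CGB7 by 2.94, ARHGEF5 by 1.99 and IGF2 by 2.69. CGB5 (4.64) and H3P4 (4.21) had 1 count in all in the shHMGA2-1 libraries, so these fitted values depend on the prior count. Their ratios of summed counts were 31 (95% exact counting interval 5.16 to 1262) and 23 (3.73 to 946). The neighbours that were lower had log2 fold changes of -1.55 (KRCC1) and -1.02 (NALCN).

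In the pathway of the bone morphogenetic proteins, the log2 fold change over shHMGA2-1 was 5.87 for ID2, 1.53 for ID1, 1.10 for ID3 and 1.55 for BMP6. It was -4.30 for CHRDL1, -3.43 for BMPR1B, -1.76 for HEY1 and -1.38 for FSTL1. BMP2 had a fitted value of -8.68 with 0 counts in both shHMGA2-2 libraries, and was at least 17.3-fold lower than in shHMGA2-1. Of the imprinted genes, PHLDA2 (-1.28) and NAP1L5 (-2.07) were lower in shHMGA2-2. In 11 of the 37 the lines did not differ past the threshold, among them CLMP, FST, GDF7, SMAD6 and GSTM4.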

How the results depend on the processing

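The number of members depends on the limits of the rule: 48 with 0 counts elsewhere, 66 with at most 1, 201 with at most 10, 194 with at least 10 counts in both shHMGA2-2 libraries and 60 with at least 50. Scaled counts gave 105, leaving out each library 109 to 134, and, chosen after seeing the data, leaving out members that overlap a counted gene 87. Calls in shHMGA2-2 against shNC (3432) ranged from 2959 with DESeq2 to 3835 without a filter, with 3105 to 3488 on leaving out a library; against shHMGA2-1 (2432) they ranged from 1923 to 2664, with 2150 to 2438. Upper quartile scaling moved the median log2 fold change of all genes over shNC from 0.03 to 0.14.

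Of the neighbours of the members (38 called higher), 22 were called within 50 kb and 19 among those with at least 10 counts in each shNC library, an alternative added after seeing the data, both drawn from fewer genes. DESeq2 called 32. Without a filter on low counts, 31 of 171 neighbours (18.1%), taken from all genes with a count, were called higher and 3 lower. The share of all genes called in that fit was not computed, so 18.1% is not comparable with the 28.8% under the filter. On leaving out a library, 34 to 39 were called higher. Called genes on the lists (62) ranged from 52 to 64. With a replicate block the calls were 3353, 2352, 38 and 60. The numbers do not pair the samples (deviations correlated at -0.0218, 0.00213 and -0.1, and the labels name no shared batch), and the block moved none of these counts by over 1.5 times. All 37 single genes kept their direction in the 11 alternatives to the edgeR fit, and 32 kept their call. FSTL1, GDF7, HEY1, L3MBTL1 and SMAD6 did not in some. The bounds of the fold, checked only for the members at 0 elsewhere that were highest in FPKM, moved by more than the replicate SD in 14 cases. Of these, 12 were with library totals (LINC02474 348, BMP5 203). Leaving out a shHMGA2-2 replicate cannot move a bound by more than that SD, so only changes of scaling could count. Depth limits members near 20 counts, and 12 with 3 counts elsewhere.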
